A study of Mus musculus with 2 samples.

Results

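The enzymes that turn arachidonic acid into prostaglandins and leukotrienes were followed through the immune cells of 2 mouse mammary tumours. The 8 genes were chosen by name from the 31053 features of the count matrices, and all 8 were found in both. They are Ptgs1 and Ptgs2, the paralogous cyclooxygenases, Ptges and Hpgds, the terminal synthases of prostaglandins E2 and D2, and Alox5, Alox5ap, Ltc4s and Lta4h, which make the leukotrienes. The tumours grew from the PyMT-M and PyMT-N mammary tumour lines, each injected into the mammary gland of mice and taken 4 weeks later at a diameter of 0.7 to 1 cm. Viable CD45+ DAPI- cells were sorted and given 1 droplet library per line, from the 5′ end of transcripts. In GRCm38 the genes lie at chr2:36230426-36252272 (Ptgs1), chr1:150100031-150108227 (Ptgs2), chr2:30889471-30929863 (Ptges), chr6:65117293-65144908 (Hpgds), chr6:116410077-116461178 (Alox5), chr5:149264767-149288153 (Alox5ap), chr11:50236461-50238616 (Ltc4s) and chr10:93453411-93484875 (Lta4h), all protein-coding. The labels do not say what M and N stand for, the host strain, or how many animals went into a library. With 1 library a line there is no replicate check, so no test of a difference between the lines can be made. Every interval below is a 95% interval for counting error alone, and line, animal and library cannot be told apart.

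Phospholipases free arachidonic acid from membranes. Cyclooxygenases convert it to prostaglandin H2, which a terminal synthase turns into a given prostaglandin or thromboxane. In the other branch, 5-lipoxygenase, encoded by Alox5 and presented with its substrate by the membrane protein of Alox5ap, makes leukotriene A4. Lta4h hydrolyses this to leukotriene B4, an attractant of neutrophils, and Ltc4s joins it to glutathione to give leukotriene C4, the first cysteinyl leukotriene. Myeloid cells are the best known makers of both families, Ptgs1 is usually called the constitutive cyclooxygenase, and Ptgs2 is an early response gene of inflammation.

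The sequence before the start site is shown for the pair of cyclooxygenases, whose RNA was highest in different cells of PyMT-M, and for Alox5, the enzyme that opens the leukotriene branch. Each window holds the 250 bases before the RefSeq start in GRCm38.p6, read 5′ to 3′ on the strand of the gene. In these 3 genes, that start coincides with the gene start of the GENCODE annotation. Capitals mark matches to any of 6 motifs, searched on both strands and chosen with these windows known. Ptgs1 is on the plus strand at chr2:36230176-36230425, Ptgs2 on the plus strand at chr1:150099781-150100030, and Alox5 on the minus strand at chr6:116461179-116461428.
Ptgs1: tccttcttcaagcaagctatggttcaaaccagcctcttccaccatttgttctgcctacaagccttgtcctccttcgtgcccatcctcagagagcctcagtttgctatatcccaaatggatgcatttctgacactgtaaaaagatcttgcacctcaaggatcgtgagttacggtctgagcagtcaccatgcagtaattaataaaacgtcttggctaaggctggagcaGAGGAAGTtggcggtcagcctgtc
Ptgs2: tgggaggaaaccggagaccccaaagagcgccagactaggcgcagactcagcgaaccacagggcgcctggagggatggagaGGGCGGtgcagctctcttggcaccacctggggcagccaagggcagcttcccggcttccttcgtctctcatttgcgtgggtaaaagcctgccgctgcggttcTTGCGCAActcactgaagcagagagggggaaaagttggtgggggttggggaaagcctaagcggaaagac
Alox5: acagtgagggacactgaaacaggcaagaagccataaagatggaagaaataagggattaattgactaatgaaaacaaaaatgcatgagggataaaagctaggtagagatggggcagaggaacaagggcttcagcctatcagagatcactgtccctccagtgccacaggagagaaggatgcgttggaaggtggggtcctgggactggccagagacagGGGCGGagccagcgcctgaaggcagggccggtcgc

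The Ptgs1 window held GAGGAAGT, the core bound by PU.1, from 24 to 17 bases before the start, a string in 2.44% of 32851 mouse windows of the same length. The Ptgs2 window held TTGCGCAA, the palindrome bound by C/EBP factors, from 69 to 62 bases before the start, which occurred in 0.164% of those windows. It also held the GC box GGGCGG from 170 to 165 bases before the start, as did Alox5 from 35 to 30, and 32.7% of windows hold that string. Hpgds shared GAGGAAGT with Ptgs1, from 49 to 42 bases before its RefSeq start. Ptges had 2 GC boxes, and the Ltc4s and Lta4h windows held none of the 6 strings. No window of the 7 matched genes held the E-box CACGTG, the cAMP-response core TGACGT or TATAAA, found in 6.02%, 6.47% and 12.4% of all windows. These matches describe letters, not bound sites, and bases outside the windows, on either side, were not searched. Alox5ap was not matched in the RefSeq table.

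The libraries differed in size and in cells. PyMT-M held 7476 barcodes with 43977988 UMIs, unique molecular identifiers that each count 1 captured transcript, at a median of 5069.5 a barcode. PyMT-N held 5020 barcodes with 14907736 UMIs at a median of 1955. After filtering, 6917 and 4793 cells were classed by marker genes, and each class is a range cut from a marker score, written as neutrophil-like and so on. PyMT-M was mostly macrophage-like, with 5058 such cells or 73.1%, and had 51 neutrophil-like cells or 0.737%. PyMT-N had 3220 neutrophil-like cells or 67.2% and 660 macrophage-like cells or 13.8%. There were 206 and 289 monocyte-like cells, PyMT-M first. All 10 neutrophil, 8 monocyte and 10 macrophage markers were seen in at least 10% of the cells of their class in each library. Within 0.1 of the cut against the next class were 61 and 37 macrophage-like cells, 29 and 26 monocyte-like cells, and 1 and 0 neutrophil-like cells. The sort and the floor of about 500 UMIs in the deposited barcodes can set these shares. Ptprc, which encodes CD45, had a UMI in 69.7% and 68.9% of cells. The libraries shared 60 barcodes. Median depth by class was 1717 and 1708 UMIs in neutrophil-like cells, 5843.5 and 5776 in monocyte-like cells, 4885 and 4720 in macrophage-like cells, 3953.5 and 3057 in T cell-like cells and 6359 and 4217.5 in NK cell-like cells, PyMT-M first.

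Levels are ranked only among classes with at least 20 cells in a library. Among these, Ptgs2 and Alox5 RNA stood highest in neutrophil-like cells of both tumours. Hpgds RNA stood highest in macrophage-like cells of both, and Ptgs1 RNA in macrophage-like cells of PyMT-M. Alox5ap RNA was abundant in every ranked myeloid class, and Ltc4s RNA in neutrophil-like, macrophage-like and, in PyMT-N, dendritic-like cells. The 3 mast cell or basophil-like cells of PyMT-N, too few to rank, had 5 Alox5, 4 Ptgs2 and 45 Alox5ap UMIs of 9804. Between the tumours, macrophage-like cells had 57.9 CPM of Ptgs1 in PyMT-N against 233 CPM in PyMT-M, and monocyte-like cells had 77.3 against 16.3 CPM of Ptgs2. Levels are UMIs of a gene per 1000000 UMIs of all cells of a class in a library (CPM). A UMI is counted once whatever the transcript's length. Whether different genes were captured equally well at the 5′ end was not tested. Orders of genes and balances between enzymes therefore describe captured UMIs. In summed RNA, fewer expressing cells and less RNA per cell cannot be told apart, so the share of cells with a UMI is given beside the levels. Shares are given as deposited and after each cell was thinned to 1000 UMIs, leaving out shallower cells. T cell-like cells serve as the background for free RNA, except for Lta4h, which lymphocytes express.

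**Figure D1:**
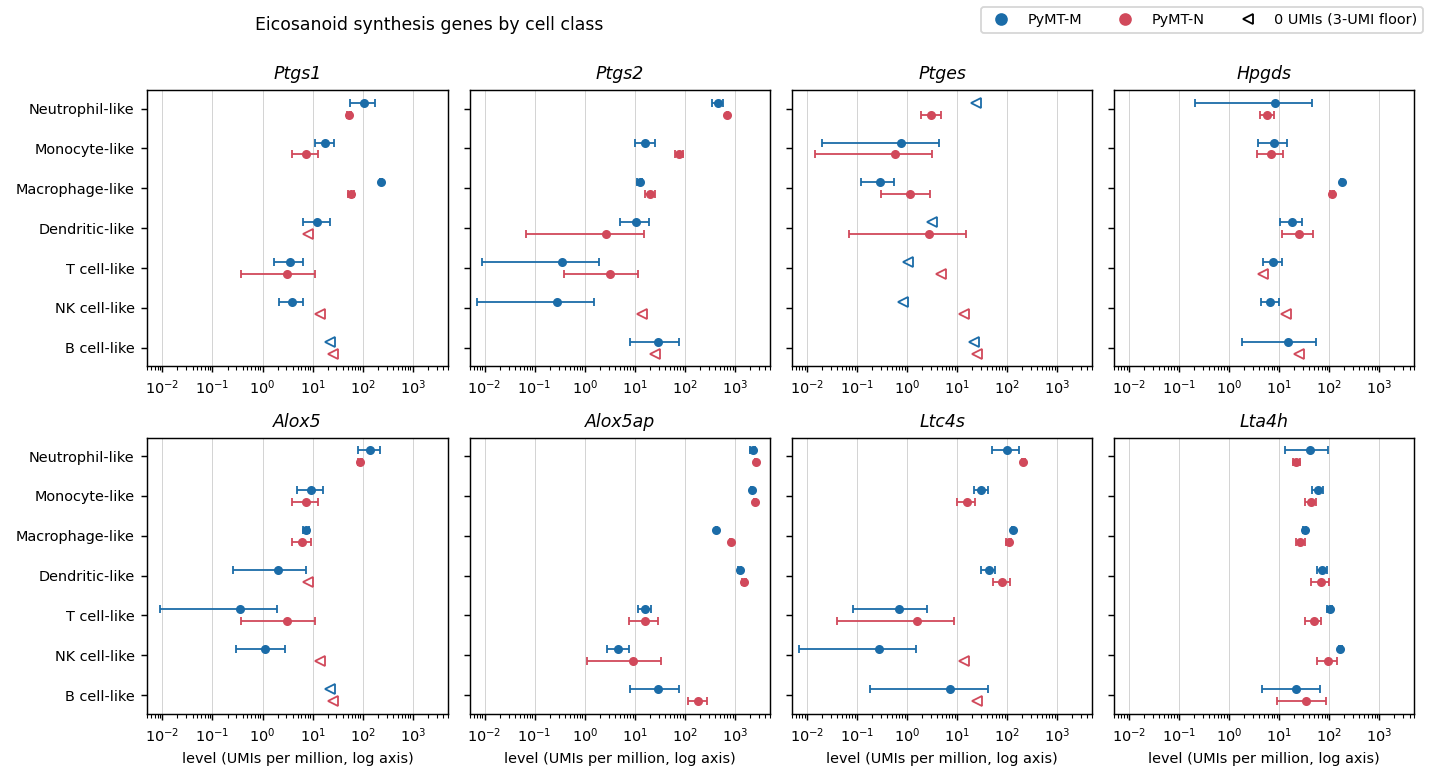
Level of each of the 8 genes (CPM, log axis) in cell classes of at least 20 cells in PyMT-M and PyMT-N, with 95% counting intervals. An open triangle marks 0 UMIs and is drawn at the level of 3 UMIs. Of these classes, Ptgs2 stands highest in neutrophil-like cells of both tumours (454 and 700 CPM). Alox5ap is at 426 CPM or more in neutrophil-, monocyte-, dendritic- and macrophage-like cells.

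Ptgs2, the inducible cyclooxygenase, was at 454 CPM (343 to 589, 56 UMIs) in neutrophil-like cells of PyMT-M and at 700 CPM (679 to 720, 4579 UMIs) in those of PyMT-N. Monocyte-like cells had 16.3 CPM (10.1 to 24.9) and 77.3 CPM (64.8 to 91.5), in the same order. Macrophage-like cells had 12.4 CPM (11.2 to 13.8) and 20.04 CPM (15.6 to 25.3). Neutrophil-like cells were thus above every other class of at least 20 cells in their library, with intervals that did not overlap. A Ptgs2 UMI was seen in 43.1% of neutrophil-like cells of PyMT-M and 48.7% of PyMT-N, and in 32.6% and 38.8% after thinning. The T cell-like shares were 0.175% and 1.18%, with none left after thinning. Dendritic-like cells, at 10.4 and 2.70 CPM, rested on 10 UMIs and 1 UMI.

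Ptgs1, the constitutive cyclooxygenase, reached 233 CPM (227 to 238, 6552 UMIs) in macrophage-like cells of PyMT-M and 57.9 CPM (50.2 to 66.3, 205 UMIs) in those of PyMT-N. Neutrophil-like cells of PyMT-M had 105 CPM (56.1 to 180), from 13 UMIs, and those of PyMT-N 53.3 CPM (47.9 to 59.2), from 349 UMIs. In PyMT-N the neutrophil and macrophage intervals overlapped, so no order between those classes is given there. Monocyte-like cells were lower, at 17.8 and 7.44 CPM. Of macrophage-like cells, 55.7% and 21.2% had a Ptgs1 UMI, or 19.6% and 6.55% after thinning, against 1.57% and 1.18% of T cell-like cells, which fell to 0.176% and 0. If every C1qa, C1qb and C1qc UMI in the 51 neutrophil-like cells of PyMT-M were free RNA, macrophage RNA would make up 10.4% of their UMIs and carry 24.2 of the 105 CPM of Ptgs1. The same upper estimate for PyMT-M monocyte-like cells, 7.39%, carries 17.2 of their 17.8 CPM, so that level is not told apart from free RNA.

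The balance between the cyclooxygenases therefore differed by class. Ptgs2 made up 81.2% (69.9 to 89.6) of cyclooxygenase UMIs in neutrophil-like cells of PyMT-M and 92.9% (92.2 to 93.6) in PyMT-N. It made up 5.07% (4.57 to 5.62) in macrophage-like cells of PyMT-M and 25.7% (20.7 to 31.3) in PyMT-N. In monocyte-like cells the share was 47.7% (32.5 to 63.3) and 91.2% (85.4 to 95.2). Since the Ptgs1 level of PyMT-M monocyte-like cells is not told apart from free macrophage RNA, neither is the 47.7%.

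**Figure D2:**
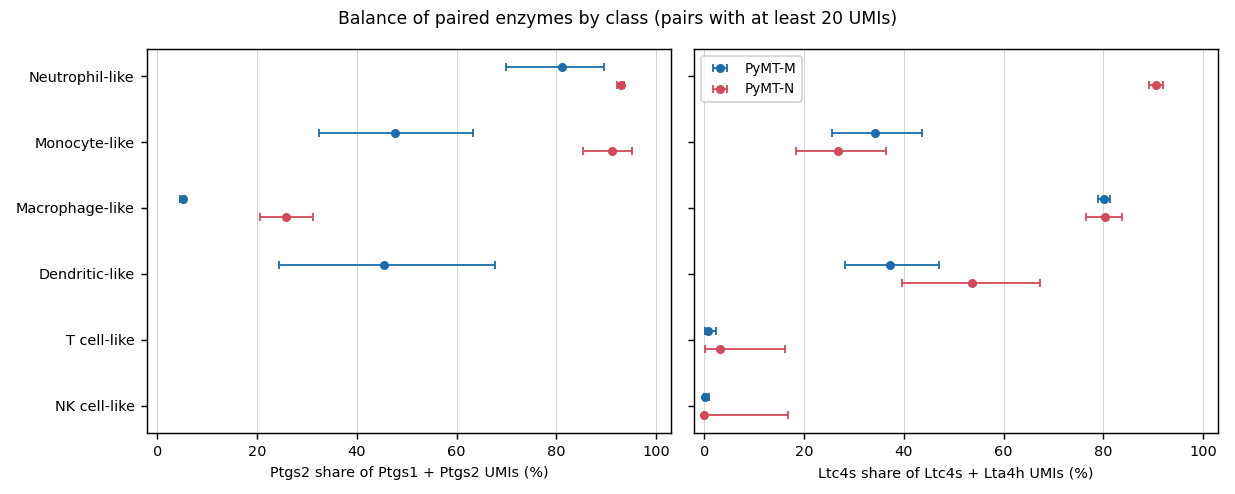
Share (%) of Ptgs2 in the summed Ptgs1 and Ptgs2 UMIs, left, and of Ltc4s in the summed Ltc4s and Lta4h UMIs, right, by cell class, with 95% counting intervals, for pairs with at least 20 UMIs. Ptgs2 dominates in neutrophil-like cells (81.2% and 92.9%) and Ptgs1 in macrophage-like cells, while Ltc4s is about 80% of its pair in macrophage-like cells of both tumours.

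Of the terminal synthases, Hpgds, hematopoietic prostaglandin D synthase, was a macrophage transcript. Its level was 175 CPM (170 to 180) in macrophage-like cells of PyMT-M and 115 CPM (104 to 127) in PyMT-N. Neutrophil-like cells had 8.10 CPM (1 UMI) and 5.81 CPM (38 UMIs), monocyte-like cells 7.76 and 6.87 CPM, and dendritic-like cells 17.7 and 24.3 CPM. The macrophage interval lay above that of each other class of at least 20 cells in both libraries. A Hpgds UMI was seen in 53.0% and 37.4% of macrophage-like cells, or 16.1% and 11.5% after thinning, and in 3.15% and 0 of T cell-like cells, or 0.528% and 0. The T cell-like and monocyte-like levels in PyMT-M, 7.64 and 7.76 CPM, differed by less than counting error. By the upper estimate above, free macrophage RNA could carry 18.2 CPM in neutrophil-like and 12.9 CPM in monocyte-like cells of PyMT-M. Both estimates exceed the levels seen, so these levels are not told apart from free RNA. In PyMT-N it would carry 0.861 of 5.81 CPM in neutrophil-like and 5.02 of 6.87 CPM in monocyte-like cells.

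Ptges, the inducible synthase of prostaglandin E2, was nearly undetected. All kept cells together had 11 UMIs for PyMT-M, with 42 for PyMT-N, and at most 3.06 CPM in any immune class. The largest immune sum was 20 UMIs, in the 3220 neutrophil-like cells of PyMT-N, and 11 of the 42 UMIs came from 12 epithelial-like cells. Neutrophil-like cells of PyMT-M had 0 UMIs, a count that allows up to 24.3 CPM, so the tumours could not be compared. Ptges3, the cytosolic synthase and co-chaperone, was at 81.0 and 112 CPM in neutrophil-like cells and at 114 and 102 CPM in monocyte-like cells of PyMT-M and PyMT-N.

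Alox5, the 5-lipoxygenase, was highest in neutrophil-like cells among classes of at least 20 cells. Neutrophil-like cells had 138 CPM (80.3 to 221, 17 UMIs) for PyMT-M and 89.1 CPM (82.0 to 96.6, 583 UMIs) for PyMT-N. Monocyte-like cells had 9.31 and 7.44 CPM and macrophage-like cells 7.46 CPM (6.48 to 8.54) and 6.21 CPM (3.89 to 9.40), PyMT-M first. Monocyte and macrophage intervals overlapped in both libraries. An Alox5 UMI was seen in 27.5% of neutrophil-like cells of PyMT-M and 15.6% of PyMT-N, or 13.04% and 8.23% after thinning, against 0.175% and 1.18% of T cell-like cells and none of them after thinning.

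Alox5ap, whose product presents arachidonate to the lipoxygenase, had the highest level of the 8 genes. Neutrophil-like cells had 2253 and 2591 CPM, monocyte-like cells 2156 and 2530 CPM, and dendritic-like cells 1244 and 1534 CPM, PyMT-M first. Macrophage-like cells were lower, at 426 CPM (418 to 433) and 816 CPM (787 to 846). T cell-like cells had 16.0 and 15.7 CPM. Neutrophil and monocyte intervals overlapped in both tumours. An Alox5ap UMI was seen in 99.5% and 98.6% of monocyte-like cells and 86.3% and 84.2% of neutrophil-like cells, which became 82.5%, 90.6%, 78.3% and 75.5% after thinning. In macrophage-like cells the share was 55.8% and 75.3%, or 24.9% and 48.1% after thinning, and in T cell-like cells 2.27% and 2.37%, or 0.352% and 1.22%. In B cell-like cells of PyMT-N the level of 184 CPM came from 22 UMIs in 3 cells.

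Monocyte-like cells thus had many UMIs of Alox5ap and few of Alox5. Alox5 was 0.430% (0.222 to 0.750) of summed Alox5 and Alox5ap UMIs in monocyte-like cells of PyMT-M and 0.293% (0.156 to 0.501) in PyMT-N. The same share was 5.76% (3.39 to 9.07) and 3.32% (3.06 to 3.60) in neutrophil-like cells.

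Ltc4s, the leukotriene C4 synthase, was carried by both neutrophil-like and macrophage-like cells. Its level was 97.3 CPM (50.3 to 170, 12 UMIs) in neutrophil-like cells of PyMT-M and 212 CPM (201 to 224, 1389 UMIs) in PyMT-N. In macrophage-like cells it was 129 CPM (124 to 133) and 108 CPM (97.0 to 119). In PyMT-N the neutrophil interval lay above the macrophage interval, and in PyMT-M they overlapped. Dendritic-like cells had 42.6 CPM (30.6 to 57.8) and 78.3 CPM (52.4 to 112). Their interval overlapped the neutrophil interval in PyMT-M and the macrophage interval in PyMT-N. Monocyte-like cells had 30.3 and 15.5 CPM, and T cell-like cells 0.695 and 1.57 CPM. A Ltc4s UMI was seen in 13.7% and 19.3% of neutrophil-like and 24.8% and 26.2% of macrophage-like cells, or 8.70%, 13.96%, 7.89% and 8.63% after thinning. T cell-like shares were 0.350% and 0.592%, with none after thinning. By the upper estimate above, free macrophage RNA would carry 13.4 of the 97.3 CPM in neutrophil-like cells of PyMT-M.

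Lta4h, the leukotriene A4 hydrolase, was the gene of the 8 with its highest level in lymphocytes. NK cell-like cells of PyMT-M had 166.5 CPM (154 to 180) and those of PyMT-N 92.7 CPM (56.6 to 143), and T cell-like cells 102 CPM (91.1 to 115) and 48.6 CPM (33.0 to 69.0). Dendritic-like cells had 71.8 and 67.5 CPM, monocyte-like cells 58.2 and 42.4 CPM, macrophage-like cells 31.9 and 26.2 CPM and neutrophil-like cells 40.5 and 21.8 CPM. In PyMT-M the NK cell-like, T cell-like and dendritic-like intervals stood apart in that order, and in PyMT-N the neighbouring intervals all overlapped. A Lta4h UMI was seen in 55.6% of NK cell-like cells of PyMT-M, or 13.6% after thinning.

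In the pair of enzymes that compete for leukotriene A4, Ltc4s made up 80.1% (78.9 to 81.3) of UMIs in macrophage-like cells of PyMT-M and 80.4% (76.5 to 83.9) in PyMT-N. Its share was 90.7% (89.1 to 92.1) in neutrophil-like cells of PyMT-N, and 34.2% (25.6 to 43.7) and 26.7% (18.4 to 36.5) in monocyte-like cells. In those monocyte-like cells free macrophage RNA would carry up to 9.49 of 30.3 and 4.70 of 15.5 CPM of Ltc4s, PyMT-M first. For Lta4h it would carry up to 2.36 of 58.2 and 1.15 of 42.4 CPM. Other class rules moved the Ltc4s level of PyMT-M monocyte-like cells to between 13.2 and 51.6 CPM. Dendritic-like cells of PyMT-M had 37.3% (28.2 to 47.0), which overlapped the monocyte interval. Those of PyMT-N lay between monocyte-like and macrophage-like cells, at 53.7% (39.6 to 67.4). NK cell-like cells had 0.165% in PyMT-M.

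Within each library, the class comparison was made on summed UMIs, and a gene with at least 20 UMIs over both sums was counted as different at 2-fold or more on the log2(CPM + 1) scale. Between neutrophil-like and macrophage-like cells of PyMT-N, 4 of 8 genes were at least 2-fold apart, where 44.3% of 10075 genes tested were. Ptgs2 was higher in neutrophil-like cells by 5.06 (4.79 to 5.48) on the log2 scale, Alox5 by 3.64 (3.23 to 4.53) and Alox5ap by 1.67 (1.61 to 1.72), and Hpgds was lower by a log2 value of -4.09 (-4.83 to -3.82). Each interval is that of the ratio without the added 1 CPM. In PyMT-M, 5 of 7 genes were at least 2-fold apart, against 54.1% of genes tested. The same 4 genes were among them, with Ptgs2 at 5.08, Alox5 at 4.04, Alox5ap at 2.40 and Hpgds at -4.27, and Ptgs1 was lower in neutrophil-like cells at -1.14. The shares of all genes are large, so the counts alone do not set these genes apart.

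Between monocyte-like and macrophage-like cells, 4 of 7 genes were 2-fold apart in PyMT-M (25.5% of all genes tested) and 5 of 7 in PyMT-N (15.6%). Monocyte-like cells had more Alox5ap, by 2.34 and 1.63 on the log2 scale, and less Ptgs1 (-3.63 and -2.80), Hpgds (-4.33 and -3.88) and Ltc4s (-2.05 and -2.72). Ptgs2 was 2-fold higher in monocyte-like cells in PyMT-N, by 1.90. In PyMT-M its levels in the pair, 16.3 and 12.4 CPM, had overlapping intervals.

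The class with the largest share of a gene's UMIs differed between the tumours for all of the 8 genes but Hpgds. For Ptges it rested on 8 of 11 UMIs in macrophage-like cells of PyMT-M and 20 of 42 in neutrophil-like cells of PyMT-N. The tumours held different cells, and Ptgs1 was also lower within macrophage-like cells, at 57.9 CPM in PyMT-N against 233 CPM in PyMT-M. How far cell numbers or levels within a class set the shares below was not tested. Over all kept cells Ptgs2 was at 353 CPM in PyMT-N against 11.3 CPM in PyMT-M. Macrophage-like cells held 78.7% of the Ptgs2 UMIs of PyMT-M, while its 51 neutrophil-like cells, 0.737% of cells, held 12.6%. In PyMT-N, neutrophil-like cells held 92.9%. Ptgs1 came 98.2% from macrophage-like cells in PyMT-M, and 59.5% from neutrophil-like and 34.9% from macrophage-like cells in PyMT-N. Ltc4s moved in the same manner, with 96.5% from macrophage-like cells in PyMT-M and 72.0% from neutrophil-like cells in PyMT-N. Alox5 came 83.0% from macrophage-like cells in PyMT-M, despite their level of 7.46 CPM, and 89.8% from neutrophil-like cells in PyMT-N. Hpgds stayed a macrophage transcript in both, at 98.1% and 83.9%. Lta4h had the widest spread, with 43.8% from macrophage-like, 29.6% from NK cell-like and 14.4% from T cell-like cells in PyMT-M.

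**Figure D3:**
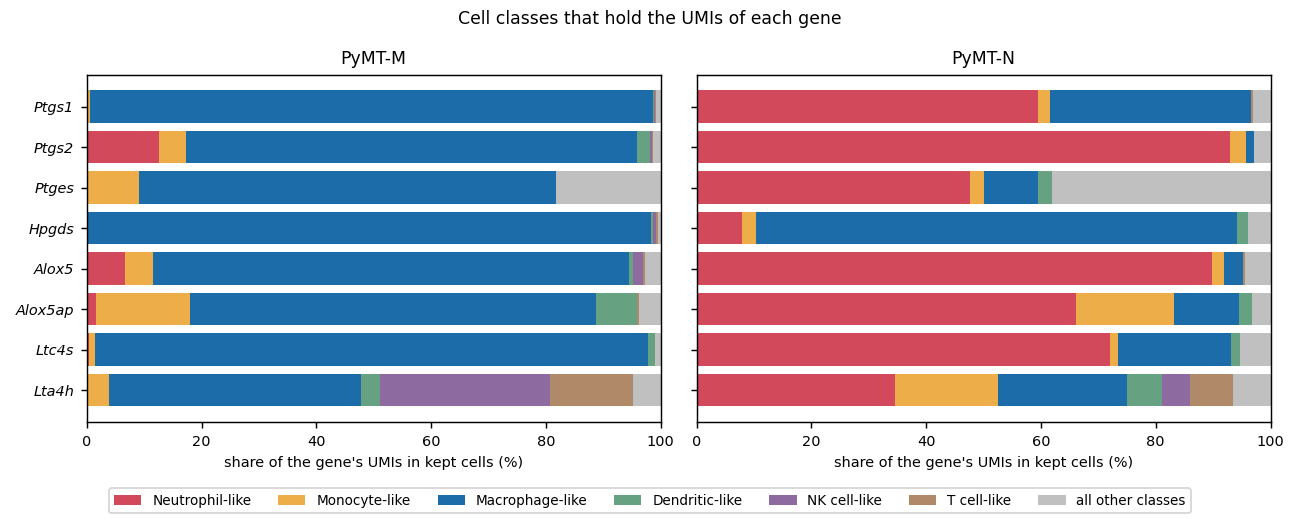
Share (%) of the UMIs of each gene in kept cells that each cell class held, in PyMT-M (left) and PyMT-N (right). Macrophage-like cells hold most UMIs of every gene but Lta4h in PyMT-M, and neutrophil-like cells hold 92.9% of Ptgs2 and 89.8% of Alox5 in PyMT-N.

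The next comparison asks how the same class differed between the tumours. In macrophage-like cells 1 of 7 genes was at least 2-fold apart, where 11.8% of 11848 genes tested were, and the median log2 ratio of PyMT-N over PyMT-M was -0.26 for the 7 genes and -0.18 for all. That gene was Ptgs1, at 57.9 against 233 CPM, a log2 ratio of -1.99 (-2.22 to -1.81). Alox5ap was the nearest to 2-fold in the other direction, at 816 against 426 CPM and 0.94 (0.88 to 1.00). Scaled so that the median gene had equal levels, Alox5ap passed 2-fold, at 1.14. Hpgds was at -0.60 (-0.76 to -0.46), Ptgs2 at 0.65 (0.30 to 1.06) and Ltc4s at -0.26 (-0.41 to -0.11). The sign for Ltc4s turned to 0.14 when each cell had equal weight. Free neutrophil RNA, by the upper estimate from S100a8 and S100a9 UMIs, 0.533% of macrophage UMIs in PyMT-N, would carry 3.73 of the 20.04 CPM of Ptgs2. Ptgs1 was the only member whose difference in these cells went past 2-fold under each of the 9 alternatives of processing, from -2.06 to -1.79.

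In monocyte-like cells 2 of 7 genes were 2-fold apart, against 6.86% of 7702 genes tested. Ptgs2 was higher in PyMT-N, at 77.3 against 16.3 CPM, a log2 ratio of 2.18 (1.58 to 2.98), and Ptgs1 was lower, at -1.16 (-2.37 to -0.22), from 13 and 23 UMIs. For Ptgs1, free macrophage RNA would carry up to 17.2 of the 17.8 CPM of PyMT-M and 2.53 of the 7.44 CPM of PyMT-N. It no longer counted as 2-fold apart with a lead of 0.2 over the next class (-1.42, with under 20 UMIs) or with a pseudocount of 5 CPM (-0.88). The upper estimate of free neutrophil RNA in PyMT-N monocyte-like cells, 0.756%, would carry 5.29 of the 77.3 CPM of Ptgs2. A Ptgs2 UMI was seen in 18.3% of these cells in PyMT-N and 6.80% in PyMT-M, or 5.59% and 2.43% after thinning. Alox5ap was within 2-fold, at 0.23. Ltc4s was at -0.93 (-1.73 to -0.22), from 27 and 39 UMIs, and turned to 0.09 when a cell needed a lead of 0.2 over the next class.

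In neutrophil-like cells the 51 cells of PyMT-M limit every comparison. Here 2 of 8 genes passed 2-fold, where 40.1% of 8574 genes did. Ltc4s was higher in PyMT-N, at 212 against 97.3 CPM, a log2 ratio of 1.12 (0.32 to 2.08), which was 0.92 with each cell weighted equally and 0.55 with a lead of 0.2 over the next class. Ptges was the other, and it passed only through the added 1 CPM, since its count in PyMT-M was 0. Ptgs2, at 700 against 454 CPM, had a log2 ratio of 0.62 (0.24 to 1.03). With each cell weighted equally its PyMT-M level was 700 CPM and the ratio 0.18, and with a lead of 0.2 the ratio was 0.16. Ptgs1 was at -0.97 (-1.78 to -0.06) and between -1.30 and -1.17 under 3 alternatives of processing. Its PyMT-M level of 105 CPM came from 13 UMIs, and free macrophage RNA would carry up to 24.2 CPM of it. In PyMT-N the same estimate was 0.434 of 53.3 CPM, and the part of free RNA in the ratio was not tested. Alox5 at -0.62 (-1.32 to 0.16) and Lta4h at -0.86 (-2.15 to 0.75) had intervals that included no difference, and Alox5ap at 0.20 turned to -0.19 with cells weighted equally.

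**Figure D4:**
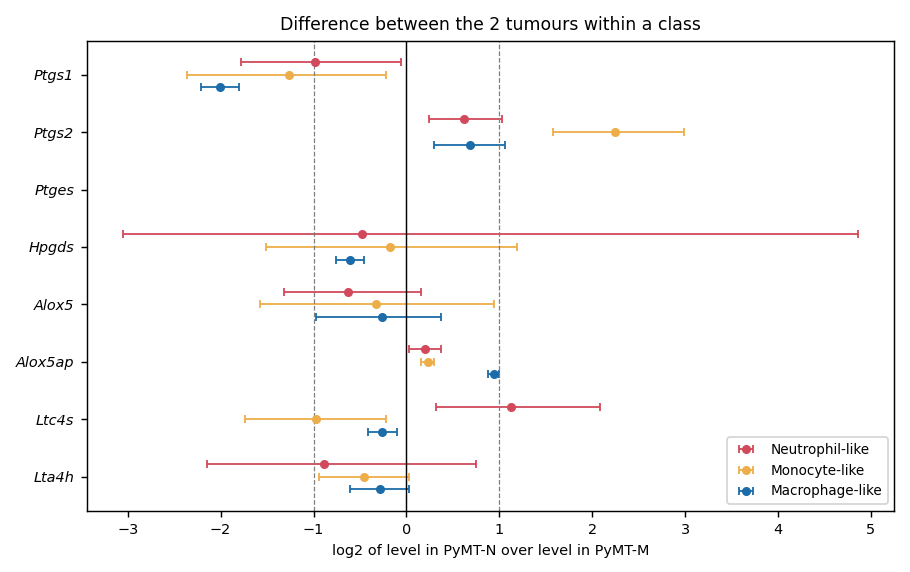
Log2 ratio of the level in PyMT-N over PyMT-M for each gene in neutrophil-, monocyte- and macrophage-like cells, without a pseudocount, with 95% counting intervals; dashed lines mark 2-fold, and Ptges, with 0 or under 20 UMIs, is not drawn. Ptgs1 in macrophage-like cells and Ptgs2 in monocyte-like cells lie past 2-fold with intervals that do not reach it, on opposite sides.

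In T cell-like cells 3 of the 8 genes could be measured and 2 passed 2-fold, where 14.2% of genes tested did. Lta4h was lower in PyMT-N, at 48.6 against 102 CPM, a log2 ratio of -1.06 (-1.66 to -0.54), and Hpgds had 0 UMIs against 22. No fold is given for Hpgds, which passed only through the count of 0, where 3 UMIs would be 4.70 CPM. Its 7.64 CPM in PyMT-M compares with an upper estimate of 4.41 CPM, or 57.7%, from free macrophage RNA. Lta4h in NK cell-like cells was at 92.7 against 166.5 CPM, a log2 ratio of -0.84 (-1.57 to -0.20), from 40 and 525 cells.

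Neutrophil-like cells of PyMT-N, 3220 in all, were then divided by limits on other genes, after thinning to 1000 UMIs. These are ranges and not cell types, and the cells at or 1 UMI under the limit were 98.1% for Siglecf, 71.5% for Hilpda and 5.17% for Retnlg. Retnlg, a gene of circulating neutrophils and itself a neutrophil marker here, had 5 UMIs or more in 474 of 3037 thinned cells. Ltc4s was at 18.0 CPM (11.6 to 26.5) in those cells and 268 CPM (253 to 282) in the other 2563, a log2 ratio of -3.82 (-4.53 to -3.33). Ptgs2 was at 284 against 800 CPM and Ptgs1 at 10.1 against 64.1 CPM. Alox5ap ran the other way, at 5125 against 1910 CPM, and Alox5 was closer, at 71.1 against 93.7 CPM. Of all genes tested 41.8% were 2-fold apart across this limit and their median log2 ratio was -0.76, beside which the Ptgs2 value of -1.49 is to be read. Median depth was 2439.5 UMIs above and 1674 below the limit, and its part in the result was not tested.

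Siglecf, a lectin gene seen on some tumour neutrophils and on eosinophils, had a UMI in 345 cells. Ltc4s was at 586 CPM (530 to 647) in them and 169 CPM (159 to 180) in the other 2692, a log2 ratio of 1.78 (1.62 to 1.96), and with a limit of 2 UMIs the ratio was 2.04. Alox5 was at 132 against 83.7 CPM, Ptgs1 at 93.7 against 47.5 CPM, and Ptgs2 at 798 against 675 CPM, all under 2-fold, while Alox5ap was lower at 1799 against 2705 CPM. Here 14.1% of genes tested were 2-fold apart. The median log2 ratio of all genes tested was 0.29, beside which the Ptgs2 value of 0.24 is to be read. The 10 neutrophil markers were at 66511 against 107560 CPM, and their part in the result was not tested. The 7 eosinophil markers summed to 2 UMIs in these 345 cells and the 10 mast cell and basophil markers to 0. Median depth was 1672 and 1763.5 UMIs.

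The same cells were also divided by hypoxia, interferon and granule genes. Cells with a UMI of Hilpda, a hypoxia-induced gene, had Ltc4s at 120 CPM against 273 CPM and Ptgs2 at 762 against 641 CPM, with 9.09% of genes 2-fold apart. Hpgds was at 11.96 against 2.06 CPM in them, a log2 ratio of 2.08 (1.38 to 3.87), from 30 and 8 UMIs. In 285 cells with at least 3 UMIs of 12 interferon-induced genes, Ptgs2 was at 698 against 687 CPM and Ltc4s at 96.4 against 225 CPM (12.8% of genes). In 39 cells with at least 3 UMIs of the granule genes Ngp, Camp and Ltf, Ptgs2 was at 102 against 710 CPM. Alox5ap was at 5484 against 2500 CPM in them. Across this limit 58.6% of genes were apart, and median depth was 5833 against 1747 UMIs. The median log2 ratio of all genes tested was -1.16, beside which the values of -2.78 for Ptgs2 and 1.13 for Alox5ap are to be read.

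**Figure D5:**
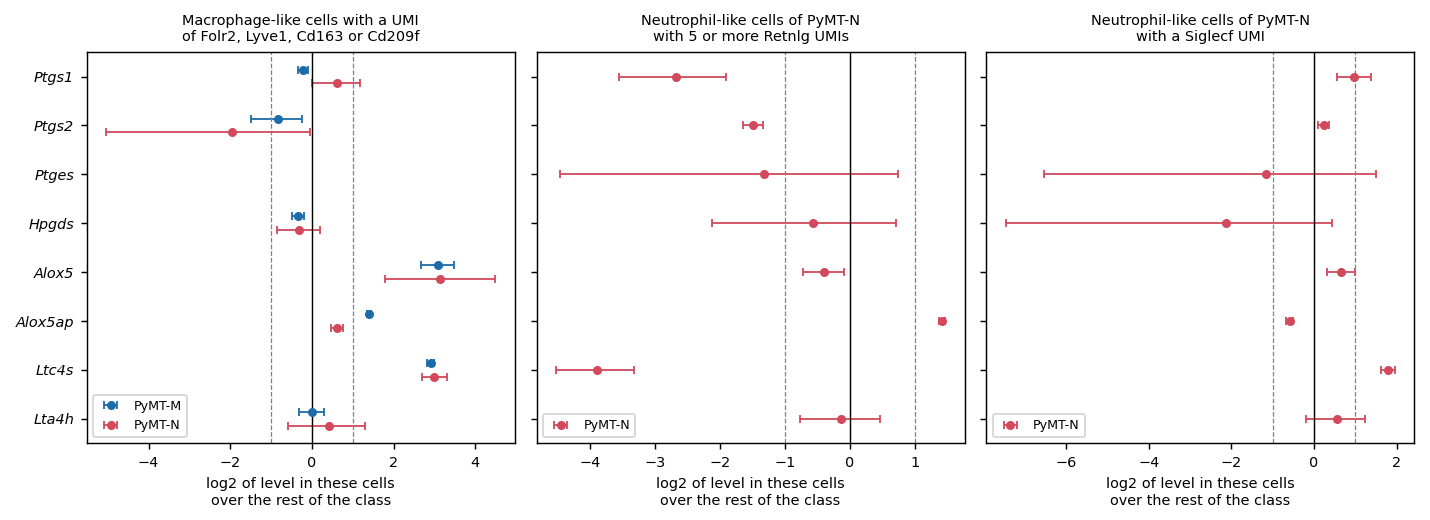
Log2 ratio of the level in cells at or above a UMI limit over the rest of their class, without a pseudocount, with 95% counting intervals, for macrophage-like cells with a Folr2, Lyve1, Cd163 or Cd209f UMI (left) and for neutrophil-like cells of PyMT-N with 5 or more Retnlg UMIs (middle) or a Siglecf UMI (right); dashed lines mark 2-fold and genes with under 20 UMIs are not drawn. Ltc4s and Alox5 lie near 3 in both tumours on the left, and Ltc4s lies on opposite sides of 0 in the middle and right panels.

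From cell to cell, Ptgs2 UMIs varied. Of 3037 thinned neutrophil-like cells of PyMT-N, 1860 had no Ptgs2 UMI, 294 or 9.68% had 3 or more, and the highest had 12. In cells with 0, with 1 to 2 and with 3 or more Ptgs2 UMIs, Alox5ap was at 2922, 2157 and 1789 CPM, in that order. Ltc4s had no such order, at 207 CPM (193 to 222), 244 CPM (222 to 268) and 154 CPM (122 to 191). Alox5, at 88.3, 91.2 and 84.4 CPM, and Lta4h, at 23.2, 19.2 and 26.3 CPM, had overlapping intervals. The 10 neutrophil markers were at 65265 CPM in cells with 3 or more Ptgs2 UMIs and 106702 CPM in the other 2743. The part of this shift in the Alox5ap order was not tested.

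Macrophage-like cells were divided in the same way. Folr2, Lyve1, Cd163 and Cd209f mark resident-type macrophages, and 519 of the thinned PyMT-M cells and 62 of PyMT-N had a UMI of at least 1 of them. In PyMT-M, Ltc4s was at 539 CPM (514 to 564) in these cells and 71.8 CPM (68.5 to 75.3) in the other 4308. In PyMT-N it was at 498 CPM (428 to 577) and 62.4 CPM (54.0 to 71.7). These are log2 ratios of 2.89 and 2.98, and 7.76% and 14.7% of all genes were 2-fold apart. With other limits or with 1 of the genes alone, the ratio for PyMT-M ran from 2.72 to 3.56 and that for PyMT-N from 2.56 to 3.57.

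Alox5 showed the same range, at 33.1 CPM (27.2 to 39.8) against 3.90 CPM (3.16 to 4.77) for PyMT-M, and at 30.8 CPM (15.4 to 55.1) against 3.48 CPM (1.74 to 6.23) for PyMT-N, the latter from 11 UMIs on each side. Alox5ap was at 939 against 356 CPM and at 1189 against 778 CPM. The cyclooxygenases and Hpgds stayed under 2-fold in PyMT-M, with Ptgs1 at 203 against 237 CPM, Ptgs2 at 7.39 against 13.2 CPM and Hpgds at 142 against 179 CPM. In PyMT-N, Ptgs2 had 2 UMIs above the limit, 5.60 against 21.8 CPM. In the cells above the limit the 10 mast cell and basophil markers summed to 1 UMI for PyMT-M and 0 for PyMT-N, and the 7 eosinophil markers to 5 and 0. The 8 monocyte markers were higher above the limit, at 1391 against 456 CPM and 1799 against 839 CPM. The 10 neutrophil markers were lower above it in PyMT-M, at 72.7 against 116 CPM, and higher in PyMT-N, at 1760 against 585 CPM. The 8 type 2 dendritic markers were higher above the limit, at 393 against 70.3 CPM and 437 against 84.8 CPM, with Ccl17 at 0 there in both tumours and Flt3 at 0 in PyMT-N. The part of monocyte, neutrophil or dendritic RNA in the result was not tested.

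Class II genes, Ccl3 and Ccl4, and cycling genes set 3 further ranges of PyMT-M macrophage-like cells. In 2364 cells above the median for class II genes, Ltc4s was at 56.1 against 193 CPM, Alox5 at 1.58 against 12.7 CPM, and Ptgs2 was higher at 18.3 against 7.33 CPM, with 5.4% of genes 2-fold apart. In 1795 cells with 5 or more Ccl3 and Ccl4 UMIs, Ltc4s was at 65.5 against 169 CPM and Ptgs2 at 17.5 against 9.28 CPM (4.32% of genes). In 166 cells with a Mki67 or Top2a UMI, Ltc4s was at 40.3 against 132 CPM (11.1% of genes). Above the Ccl3 and Ccl4 limit the 8 monocyte markers were at 288 against 750 CPM, the 8 type 2 dendritic markers at 47.6 against 149 CPM and the 9 epithelial markers at 11.3 against 60.6 CPM, and their part in the result was not tested. The 20 cells with a Ctsk or Mmp12 UMI had more Ltc4s, at 274 against 128 CPM, and more Alox5ap, at 789 against 425 CPM.

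The smaller PyMT-N class did not repeat all of these contrasts. Across its class II median Ltc4s was at 86.8 against 129.9 CPM and Alox5 at 3.16 against 9.90 CPM, while Ptgs2 was at 20.5 against 19.8 CPM. Across the Ccl3 and Ccl4 limit Ltc4s was at 99.8 against 107 CPM. Across the cycling limit it was at 139.5 against 104 CPM, a log2 ratio of 0.42 (-0.14 to 0.94).

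The other genes of the pathway came from a list of 48, ordered by role. In macrophage-like cells 27 could be measured between the tumours, of which 2 stood 2-fold or more above PyMT-M in PyMT-N and 5 as far below. Of all genes tested, 11.8% were 2-fold apart. The median log2 ratio was -0.21 for the pathway genes against -0.18 for all genes. With the median gene set equal between the tumours, 4 pathway genes were higher and 3 lower, where 11.5% of all genes were 2-fold apart. Among 5 phospholipases 3 were lower, with Pla2g15, the lysosomal enzyme, at 57.3 against 146 CPM, and Pla2g4a, the cytosolic enzyme, within 2-fold at 26.0 against 34.7 CPM. All 6 other prostanoid synthases were within 2-fold, such as Akr1b3, an aldose reductase that also makes prostaglandin F, at 124 against 189 CPM. Hpgd, which inactivates prostaglandins, was lower at 44.6 against 113 CPM, a log2 ratio of -1.32 (-1.58 to -1.11). Of 6 receptors, Ltb4r1, the high-affinity receptor for leukotriene B4, was higher at 18.9 against 6.18 CPM, and Ptger4, a receptor for prostaglandin E2, was at 33.3 against 38.6 CPM.

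In monocyte-like cells 22 of the 48 could be measured, with 1 higher in PyMT-N, Ptgr1, and 1 lower, Ptgir, the prostacyclin receptor (6.86% of all genes tested were apart). In neutrophil-like cells 20 could be measured, with 6 higher and 5 lower, where 40.1% of all genes tested were apart. Of the 6, 5 had 0 UMIs in PyMT-M, and the sixth, Cysltr1, had 1. Between neutrophil-like and macrophage-like cells of PyMT-N, 24 could be measured. Of these, 4 were at least 2-fold higher in neutrophil-like cells and 12 lower, where 44.3% of all genes tested were apart. Ltb4r1 was at 133 against 18.9 CPM and Ggt5, which cleaves leukotriene C4, at 46.7 against 11.01 CPM. Akr1b3 was at 10.5 against 124 CPM and Hpgd at 1.07 against 44.6 CPM.

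Over the 14 class sums of at least 50 cells, the genes whose log2 levels most resembled each enzyme were found among 8322 genes by Pearson correlation, given as a description. The sums share 2 libraries and their depths. Nearest to Ptgs2 were Tet2 (0.93), Taf6l (0.92) and Il1b (0.92), and among those nearest to Ptgs1 were Il1a (0.93) and Ston2 (0.92). Hpgds was nearest to Cxcl16 (0.91), Hexa (0.90) and Gna12 (0.89). Alox5 was nearest to Id1 (0.97), Fpr2 (0.95) and Gpr84 (0.95), Alox5ap to Cd300a (0.97), Nfam1 (0.96) and Cfp (0.96), Ltc4s to Clec4n (0.95), Atp6v0c (0.93) and Cd33 (0.93), and Lta4h to Klrk1 (0.92), Coro2a (0.90) and Cd7 (0.89). For Ptges, with so few UMIs, no neighbours are given. Among the 8 genes themselves the highest value was between Ptgs2 and Alox5 (0.87), and that between Ptgs1 and Ptgs2 was 0.56.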

How the data were processed

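The authors deposited a matrix of whole-number UMI counts per gene and cell barcode for each of 2 libraries, 1 for each tumour line. Its file header names matrix software version 3.1.0. The submitters' processing notes list Cell Ranger and Seurat and the build mm10, with no role given for either tool. Deposited barcodes start at 501 and 500 UMIs.

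Barcodes with under 200 genes or over 10% mitochondrial UMIs were removed, 119 from PyMT-M and 26 from PyMT-N. The automatic threshold of Scrublet marked 0 doublets in each library, so the highest scores were removed at a rate of 0.8% per 1000 cells, 440 and 201 cells. A cell took the class whose marker list had the largest share of genes with a UMI, with at least 3 markers seen, and ties stayed unassigned. Clusters were used only as an alternative. UMIs were summed by library and class, and levels are counts per 1000000 of that sum (CPM). Levels and their order are given for classes with at least 20 cells in a library. Levels have exact Poisson intervals, shares exact Clopper-Pearson intervals, and ratios exact conditional binomial intervals, all at 95% and for counting error only. A gene was compared where it had 20 UMIs over both sums and was counted as different at 2-fold with a pseudocount of 1 CPM. No test between the tumours was made, since each has 1 library. A count of 0 was taken to allow up to 3 counts.

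The named genes are the 8 members, at most 4 genes of each pathway role and class by level and by ratio, and the 3 nearest genes of each member among genes with at least 200 UMIs and 20 CPM in a sum. A gene near Ptgs1 by this rule is not reported here. Members and lists were chosen with earlier results of these data known. Counts were simulated with counting error alone, for genes with at least 10 expected UMIs in each sum, and 200 genes were changed 4-fold. The procedure called 99.5% of them correctly for macrophage-like cells, among 9925 genes. For monocyte-like cells it was 99.0%, among 7219 genes, and for neutrophil-like cells 99.5%, among 1560 genes. A 4-fold change lies well past the 2-fold limit, so high shares were built in. Genes with fewer UMIs, variation between cells or libraries, and false calls were not covered. Promoter windows came from RefSeq on GRCm38.p6 and matched 7 of the 8 genes, and gene coordinates came from GENCODE. Work was done in Python 3.11.15 with scanpy 1.11.5, scipy 1.17.1 and pandas 2.3.3.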

Additional observations from a re-analysis of the deposited data

Results flagged for a closer look

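The log2 ratio of Ltc4s between the tumours, PyMT-N over PyMT-M, took opposite directions by class, at 1.118 in neutrophil-like cells, -0.925 in monocyte-like cells and -0.256 in macrophage-like cells. The difference between the classes was not tested, and the last 2 signs turned under the alternatives named in the report.

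Within macrophage-like cells, 8 contrasts ran in opposite directions in the tumours, with counting intervals that excluded 0, and none of these differences was tested. Alox5ap, above over below the limit on Ctsk and Mmp12, was at 0.892 in PyMT-M, where 20 cells lay above, and -0.499 in PyMT-N. Ltc4s across the same limit was at 1.097 and -1.046. Ptgs1 across the Ccl3 and Ccl4 limit was at -0.158 and 0.850, and across the Folr2, Lyve1, Cd163 and Cd209f limit at -0.219 and 0.607. Across the limit on interferon-induced genes, Alox5ap was at -0.751 and 0.771, Ltc4s at -0.643 and 0.757, and Hpgds at 0.155 and -3.537, the last from 1 UMI in the 20 PyMT-N cells above the limit. Alox5ap across the class II median was at -0.624 in PyMT-M and 0.261 in PyMT-N.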

How the results depend on the processing

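Of 45 recomputed counts of genes 2-fold apart, 38 stayed within 1.5 times and 7 did not, and the cause was not tested. In neutrophil-like cells the count of 2 of the 8 genes became 1 with cells weighted equally (Ptges) and 1 with a pseudocount of 5 CPM (Ltc4s). In monocyte-like cells the count of 2 became 4 with classes set by mean log marker UMIs (Alox5 and Ltc4s lower as well as Ptgs1), 1 with a lead of 0.2 over the next class and 1 with a pseudocount of 5 CPM (both Ptgs2). In macrophage-like cells the count of 1 became 2 with the median gene scaled to equal levels (Alox5ap), and the 7 pathway genes became 3 with a pseudocount of 5 CPM (Ltb4r1, Pla2g15, Hpgd). Of the recomputed log2 ratios of single genes, 52 left the counting interval or changed sides of 2-fold and 233 did not. Of the recomputed levels 46 left their interval and 242 did not, and of the shares thinned to 500 UMIs 30 left it and 18 did not. No recomputed ratio of a called gene changed sign. Ptgs1 stayed 2-fold lower in macrophage-like cells and Ptgs2 2-fold higher in monocyte-like cells of PyMT-N under all 9 alternatives (1.95 to 2.44 for Ptgs2). Of the 33 levels with 20 UMIs, those that moved by over 1.5 times were Ltc4s (30.3 to between 13.2 and 51.6 CPM) and Ptgs1 in monocyte-like cells of PyMT-M and Ptgs2 in neutrophil-like cells of PyMT-M (454 to 700 CPM). The other limits for Siglecf, Retnlg and the resident-type macrophage genes were chosen after seeing the data. The 51 neutrophil-like cells of PyMT-M limit every value of that class. No paired analysis was possible because each line has 1 library, which also leaves no library to leave out.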
